A study of Homo sapiens with 5 samples.

Results

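Telomeres are the repeated DNA ends of chromosomes, and dividing cells lose some of that repeat at each replication unless it is added back. Telomerase does so with a catalytic protein (TERT) and an RNA template that is held by the dyskerin complex, while the shelterin proteins cover the repeat and hide it from DNA repair. Most adult tissues keep TERT silent and most cancers express it again, and a minority of tumours use a recombination route (ALT) that is often linked to loss of ATRX or DAXX. The 10 genes described here, of 57905 in the deposited table, were chosen by symbol: TERT and DKC1 of telomerase, TERF1, TERF2, POT1, TINF2 and ACD of shelterin, the helicase gene RTEL1, and ATRX and DAXX. All 10 symbols matched 1 row each.

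The study sequenced oligo-dT enriched RNA of 5 human cell lines, with 1 library per line, to examine PAX5 in Merkel cell carcinoma, a skin cancer with neuroendocrine features. MCC13, MKL-1, MKL-2 and WaGa were labelled Merkel cell carcinoma (MCC, n = 4) and REH pre-B-cell acute lymphoblastic leukemia (n = 1). All lines were labelled wild type and grown in RPMI with serum, with no treatment. Levels were TPM, an abundance scaled by transcript length and to a fixed total, which allows genes to be compared within a library but leaves the read depth behind a value unknown. An n here counts lines, not cultures, and an SD is the spread between lines. REH is the single line of its type, so a difference from it cannot be told apart from a trait of that line.

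Markers of the labelled types were checked. Of 12 Merkel and neuroendocrine genes, 12 stood at 10 TPM or more in each of MKL-1, MKL-2 and WaGa, but 2 (KRT8 and KRT18) did in MCC13, where ATOH1, INSM1, ISL1 and KRT20 were listed at 0. Their summed level was 547 TPM in MCC13, against 4703 to 8948 TPM in the other 3 MCC lines. The summed level of 6 mesenchymal genes was 10049 TPM in MCC13, against 8.26 to 17.4 TPM in the other 3 MCC lines. It was 967 TPM in REH, with VIM at 724 TPM. REH had 7 of 8 early B genes at 10 TPM or more. Summed levels of 8 proliferation genes ran from 1641 TPM in MCC13 to 2981 TPM in WaGa, with 2331 TPM in REH. PCNA was the most abundant of them, at 406 TPM in MCC13 and 1669 TPM in WaGa, and weighs most in these sums. On the log2(TPM + 1) scale MCC13 lay above the mean of the other 3 MCC lines for 5 of the 8 and below it for 3. Mitochondrially encoded genes took 3.52% to 7.84% of the TPM total in MCC lines and 0.783% in REH. With those genes removed and TPM rescaled, no member passed in either comparison, and the log2 difference of TERT from REH was -5.42 (limma, adjusted p = 0.16). The part of the marker differences in the results was not tested.

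TERT and DKC1 encode partners in the same enzyme and gave the most and among the least variable levels of the set, so their promoters are shown side by side. Each is the RefSeq window (GRCh38.p14) from 250 bases before the gene's start to 50 after it, read 5′ to 3′ along the gene. RefSeq windows were found for 6 of the 10 genes. Capitals mark the E-box CACGTG, which MYC and MAX bind, and the GC box GGGCGG, which SP1 binds, on either strand. The TERT window is chr5:1295019-1295318 on the minus strand and the DKC1 window is chrX:154762614-154762913 on the plus strand.
TERT: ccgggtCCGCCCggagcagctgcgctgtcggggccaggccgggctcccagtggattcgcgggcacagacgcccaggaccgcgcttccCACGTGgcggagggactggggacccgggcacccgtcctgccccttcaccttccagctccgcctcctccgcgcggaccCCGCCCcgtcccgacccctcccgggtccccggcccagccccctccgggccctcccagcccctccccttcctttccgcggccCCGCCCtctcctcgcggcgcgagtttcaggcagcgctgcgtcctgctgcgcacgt
DKC1: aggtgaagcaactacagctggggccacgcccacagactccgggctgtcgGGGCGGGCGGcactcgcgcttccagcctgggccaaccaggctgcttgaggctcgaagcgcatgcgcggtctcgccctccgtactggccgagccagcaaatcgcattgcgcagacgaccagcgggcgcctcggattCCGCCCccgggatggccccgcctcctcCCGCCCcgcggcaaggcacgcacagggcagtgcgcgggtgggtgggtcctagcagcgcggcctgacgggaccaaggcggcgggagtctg
The TERT window held 1 E-box, at bases 88 to 93 counted from its 5′ end, and 3 GC boxes. It ends in CACGT, the E-box short of its last base, so a site across that edge would not be counted. The DKC1 window held 4 GC boxes, of which 2 overlap, and no E-box. The E-box was found in 7.26% of all 35116 RefSeq windows of 300 bases and the GC box in 45.0%, with 3 or more GC boxes in 15.8%. The exact ETS motif CCGGAAG, searched on both strands and held by 10.3% of windows, was in neither of them. Shorter or altered ETS sites were not searched. The windows are of the reference genome, so sequence variants in these lines would not show.

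TERT (ENSG00000164362, chromosome 5), the reverse transcriptase of telomerase, varied most among the members. Its level was 0.187 TPM in MCC13, 3.04 in MKL-1, 14.8 in MKL-2 and 1.97 in WaGa, against 170.5 TPM in REH. The leukaemia line lay above all 4 MCC lines, 11.5-fold over MKL-2, the highest of them. Within the MCC lines MKL-2 was highest and MCC13 lowest, and the lowest of the other 3 was 10.5-fold above MCC13. The MCC13 value lies under the filter of 1 TPM and its read depth is unknown, so a fold over it is imprecise. The 4 MCC lines averaged 4.99 ± 6.62 TPM (SD, n = 4), a spread wider than the mean. In MKL-1, WaGa and MCC13 TERT was the least abundant of the 10 genes and in MKL-2 the ninth, whereas in REH it was the second, after DKC1.

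The MCC lines were compared with REH by a linear model across all genes on log2(TPM + 1), which understates differences at low levels. TERT differed by -5.47 ± 1.48 (SE, 95% interval -9.37 to -1.57). That gave an unadjusted p = 0.0163 and an adjusted p = 0.143 in limma (Benjamini-Hochberg over 22250 genes), so TERT did not pass the threshold of 0.05. Leaving out MCC13 gave a difference of -4.90 (limma, adjusted p = 0.096), and the adjusted p ran from 0.096 to 0.313 over all alternatives. MCC13 differed from the other 3 MCC lines by -2.27 ± 1.19 (SE, 95% interval -5.87 to 1.33, limma, adjusted p = 0.332). With a pseudocount of 0.1 in place of 1 that difference was -4.0 (limma, adjusted p = 0.204).

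DKC1 (ENSG00000130826, chromosome X) encodes dyskerin, the pseudouridine synthase that binds and stabilises the telomerase RNA as well as small nucleolar RNAs. It was the most abundant member in every line, at 187 TPM in MCC13, 168 in MKL-1, 212 in MKL-2 and 151 in WaGa, against 222 TPM in REH. All 4 MCC lines lay below REH, but the highest of them was close to it, and the difference was -0.32 ± 0.29 (SE, 95% interval -1.08 to 0.44, limma, adjusted p = 0.639). DKC1 transcripts outnumbered those of TERT by 55.2 to 1 in MKL-1, 14.4 to 1 in MKL-2 and 76.4 to 1 in WaGa, against 1.3 to 1 in REH. In MCC13 the ratio was 1002 to 1, but over a TERT level of 0.187 TPM in 1 library, so it is imprecise. The template RNA gene TERC, looked at after the values were seen, stood at 0.261 to 2.0 TPM in MCC lines and 2.50 TPM in REH. Its RNA mostly lacks the poly(A) tail that oligo-dT captures, so these values do not measure it.

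**Figure D1:**
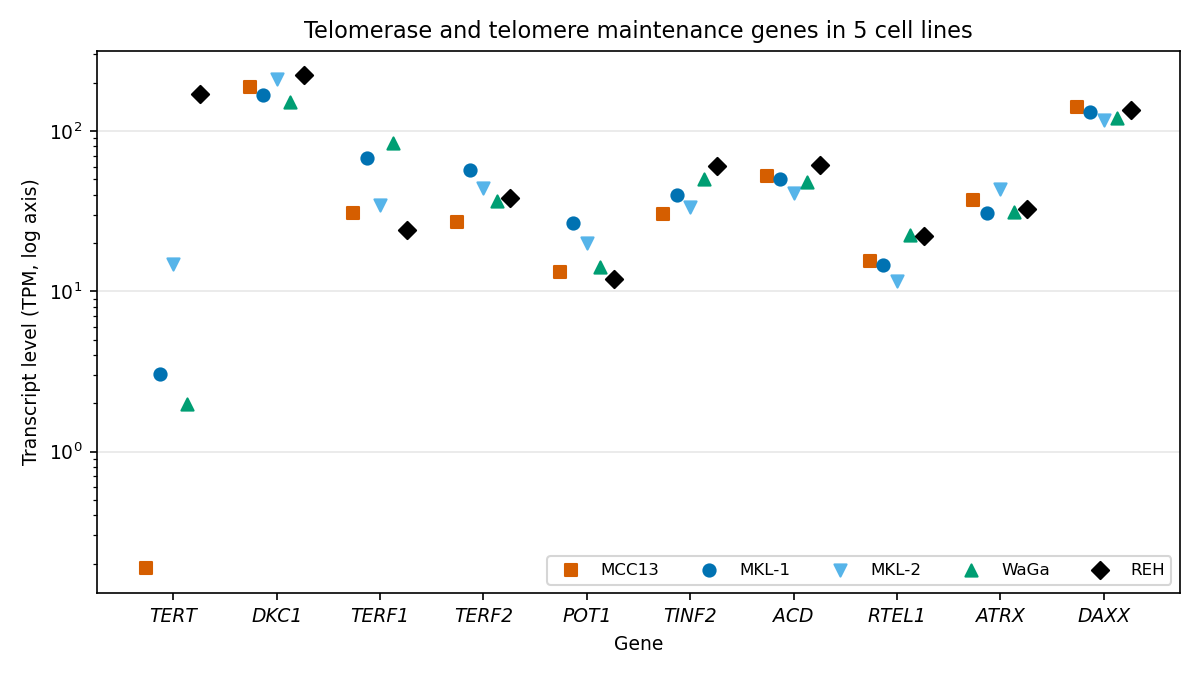
Transcript level of each member in each line, on a logarithmic axis in TPM, with 1 point per library (n = 1 per line). TERT runs from 0.187 TPM in MCC13 to 170.5 TPM in REH, while each of the other 9 genes stays within 4-fold over the 5 lines.

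Shelterin is built on 2 proteins that bind double-stranded repeat, TRF1 (gene TERF1) and TRF2 (gene TERF2). TERF1 (ENSG00000147601, chromosome 8), which helps replication forks through the repeat, was the most variable shelterin gene, at 30.8 TPM in MCC13, 67.5 in MKL-1, 34.3 in MKL-2 and 83.7 in WaGa, against 24.2 TPM in REH. WaGa and MKL-1 were high, MKL-2 and MCC13 lay nearer REH, and no MCC line lay below REH. The difference from REH was 1.01 ± 0.68 (SE, 95% interval -0.80 to 2.81, limma, adjusted p = 0.535). MCC13 differed from the other 3 MCC lines by -0.89 ± 0.62 (SE, limma, adjusted p = 0.44). The 5 TERF1 pseudogene rows summed to 0.248 to 4.41 TPM over the 5 lines, highest in MKL-1 through TERF1P3 (3.98 TPM). How reads shared with them were counted is not given in the sources at hand, so the TERF1 level carries that uncertainty.

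TERF2 (ENSG00000132604, chromosome 16), which folds the end into a protected loop and blocks end fusion, stood at 27.2 TPM in MCC13, 57.2 in MKL-1, 44.3 in MKL-2 and 36.8 in WaGa, against 37.9 TPM in REH. REH lay inside the range of the MCC lines, and MCC13 lay below the other 3. The difference of MCC lines from REH was 0.07 ± 0.48 (SE, 95% interval -1.20 to 1.34) and that of MCC13 from the other 3 lines -0.72 ± 0.35 (SE, 95% interval -1.77 to 0.33), with limma adjusted p = 0.95 and 0.303. The ratio of TERF1 to TERF2 was 1.13 in MCC13, 1.18 in MKL-1, 0.774 in MKL-2 and 2.27 in WaGa, against 0.637 in REH.

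POT1 (ENSG00000128513, chromosome 7) binds the single-stranded overhang, and ACD (ENSG00000102977, chromosome 16, protein TPP1) recruits telomerase and carries POT1. POT1 stood at 13.2 TPM in MCC13, 26.7 in MKL-1, 20.1 in MKL-2 and 14.24 in WaGa, against 11.9 TPM in REH. ACD stood at 52.0 TPM in MCC13, 50.2 in MKL-1, 41.1 in MKL-2 and 47.9 in WaGa, against 61.5 TPM in REH. POT1 was thus above REH in all 4 MCC lines and ACD below it in all 4, by small margins at the nearest line. The differences from REH were 0.55 ± 0.55 for POT1 (SE, 95% interval -0.90 to 2.0) and -0.36 ± 0.29 for ACD (SE, 95% interval -1.12 to 0.40), with limma adjusted p = 0.672 and 0.59. ACD exceeded POT1 by 3.95-fold in MCC13, 1.88-fold in MKL-1, 2.04-fold in MKL-2 and 3.36-fold in WaGa, against 5.17-fold in REH.

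TINF2 (ENSG00000092330, chromosome 14) encodes TIN2, the hub that ties TRF1 and TRF2 to TPP1. It stood at 30.5 TPM in MCC13, 39.6 in MKL-1, 33.4 in MKL-2 and 50.2 in WaGa, against 60.1 TPM in REH. The leukaemia line was above every MCC line, with a difference of -0.66 ± 0.39 (SE, 95% interval -1.68 to 0.36, limma, adjusted p = 0.481). TERF2IP (the protein RAP1), the remaining shelterin subunit, was the most abundant of the 6, at 91.7 TPM in MCC13, 183 in MKL-1, 246 in MKL-2 and 204 in WaGa, against 132 TPM in REH. MCC13 held less than any other line, and differed from the other 3 MCC lines by -1.18 ± 0.26 (SE, 95% interval -1.96 to -0.40, limma, unadjusted p = 0.0158, adjusted p = 0.103).

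The 6 shelterin genes together came to 245 TPM in MCC13, 424 in MKL-1, 419 in MKL-2 and 437 in WaGa, against 327 TPM in REH. TERF2IP alone made up 37.4% (MCC13) to 58.7% (MKL-2) of these sums. The 5 members without it came to 154 TPM in MCC13, 241 in MKL-1, 173 in MKL-2 and 233 in WaGa, against 196 TPM in REH. On that sum MKL-2 lay near MCC13, and both lay below REH. Of the 6, 5 (all except ACD) were lower in MCC13 than in each of the other 3 MCC lines. Among all 20698 genes tested in that comparison, 43.4% were lower in MCC13 than in each of the other 3. The median difference over all of them was -0.30, and -0.13 after quantile normalization. Shelterin makeup also varied. TERF1 held 12.5% of the summed level in MCC13, 15.9% in MKL-1, 8.18% in MKL-2 and 19.1% in WaGa, against 7.38% in REH. Among the 5 shelterin members without TERF2IP, ACD held 33.8% in MCC13 and 20.6% to 23.7% in the other 3 MCC lines, against 31.5% in REH.

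**Figure D2:**
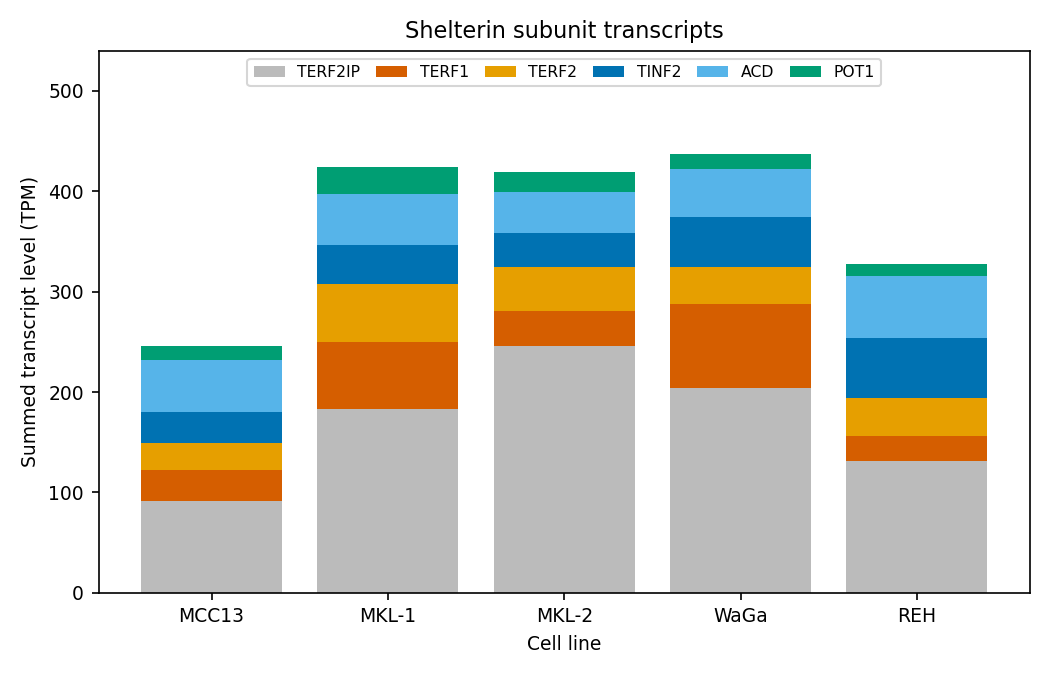
Summed transcript level of the 6 shelterin genes in TPM for each line, with 1 library per line and each colour a gene. The total is 245 TPM in MCC13, between 419 and 437 TPM in the other 3 MCC lines and 327 TPM in REH, and TERF2IP is the largest part in each line.

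RTEL1 (ENSG00000258366, chromosome 20) is a helicase that unwinds the protective loop and G-rich structures during replication. Its row stood at 15.4 TPM in MCC13, 14.7 in MKL-1, 11.6 in MKL-2 and 22.6 in WaGa, against 22.1 TPM in REH. WaGa lay just above REH and the other 3 lay below, and the difference was -0.48 ± 0.50 (SE, limma, adjusted p = 0.686). A readthrough row, RTEL1-TNFRSF6B, spans the same locus, so how reads were split between them is uncertain. The rows summed to 26.2 TPM in MCC13, 25.6 in MKL-1, 23.0 in MKL-2 and 45.5 in WaGa, against 45.0 TPM in REH. The order of the lines stayed the same for the sum.

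ATRX (ENSG00000085224, chromosome X) and DAXX (ENSG00000204209, chromosome 6) encode a remodeller and a chaperone that place histone H3.3 at telomeres. ATRX stood at 36.9 TPM in MCC13, 31.0 in MKL-1, 43.5 in MKL-2 and 31.1 in WaGa, against 32.8 TPM in REH. DAXX stood at 140.1 TPM in MCC13, 131 in MKL-1, 118 in MKL-2 and 121 in WaGa, against 134 TPM in REH. The lowest level over the 5 lines was 31.0 TPM for ATRX (MKL-1) and 118 TPM for DAXX (MKL-2). REH lay inside the range of the MCC lines for both. The differences from REH were 0.10 ± 0.35 for ATRX (SE, 95% interval -0.82 to 1.02) and -0.08 ± 0.24 for DAXX (SE, 95% interval -0.72 to 0.56), with limma adjusted p = 0.896 and 0.884. MCC13 differed from the other 3 MCC lines by 0.09 ± 0.33 in ATRX and 0.19 ± 0.19 in DAXX (SE), with limma adjusted p = 0.879 and 0.576. RNA levels do not show whether the proteins were intact, and use of ALT was not tested.

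**Figure D3:**
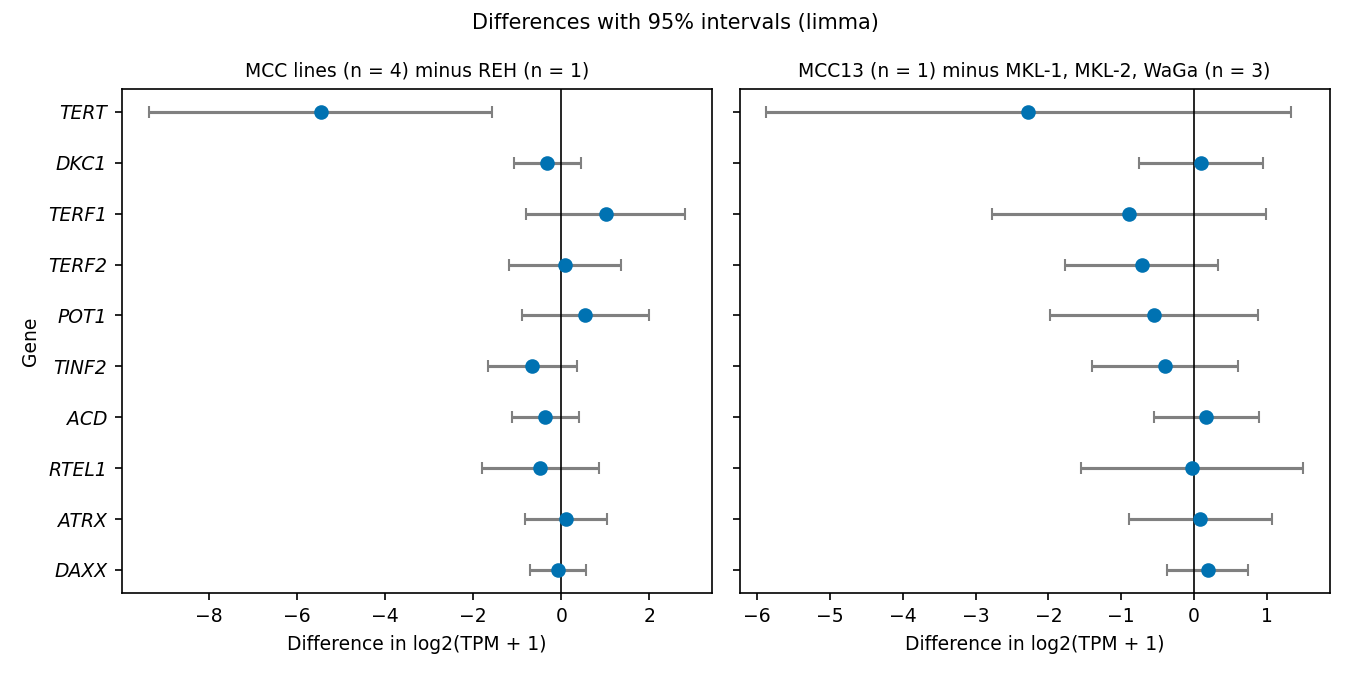
Difference in log2(TPM + 1) of each member with its 95% limma interval (not adjusted for the number of genes), for MCC lines minus REH (left, n = 4 and 1) and MCC13 minus the other 3 MCC lines (right, n = 1 and 3). Of the 20 intervals, that of TERT in the left panel (-9.37 to -1.57) lies wholly to one side of 0.

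In all, none of the 10 members passed in either comparison (limma, adjusted p under 0.05). Of all 22250 genes tested, 5.24% passed between MCC lines and REH (1.09% higher and 4.15% lower in MCC lines). Of 20698 genes, 8.95% passed when MCC13 was set against the other 3 MCC lines (6.47% higher and 2.47% lower in MCC13). At unadjusted p under 0.05 there was 1 member (TERT) in the first comparison, where 18.6% of all genes were, and 0 in the second, where 26.6% were. The median difference of the members was -0.20 against a median of 0.18 over all genes in the first comparison, and -0.21 against -0.30 in the second. REH lay outside the range of the MCC lines for 6 of the 10 members, with TERF1 and POT1 higher and TERT, DKC1, TINF2 and ACD lower in the MCC lines. Of all genes 52.7% did not overlap either, 27% higher and 25.6% lower. MCC13 lay outside the range of the other 3 for 7 of the 10, with ACD and DAXX higher and TERT, TERF1, TERF2, POT1 and TINF2 lower. Of all genes 71.1% did so, 27.7% higher and 43.4% lower. Both member counts were near these shares. A test of 4 lines against 1, or of 1 against 3, takes each gene's own spread from the lines of the larger group alone. The limma fit then moderates that spread toward a trend over all genes. An exact permutation test could not go below 0.2 or 0.25.

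The members fell into 3 classes by the ratio of the highest to the lowest line. DKC1, TINF2, ACD, RTEL1, ATRX and DAXX varied by less than 2-fold, with DAXX the steadiest at 1.19-fold. TERF2, POT1 and TERF1 varied by 2.10-, 2.25- and 3.46-fold, and TERT by 911-fold. The TERT ratio divides by 0.187 TPM in MCC13, a value near 0, so it is imprecise. On the log2(TPM + 1) scale the range of TERT over the 5 lines was 7.17, and 98.4% of the 22250 tested genes had a smaller one. The range of DAXX was 0.25, and 0.144% of genes had a smaller one. ATRX, DKC1 and ACD were also among the steadiest, with smaller ranges in 1.75%, 2.86% and 3.13% of genes. Within the 4 MCC lines alone TERT varied by 78.9-fold, again over the MCC13 value, and 90.1% of genes tested there had a smaller range.

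**Figure D4:**
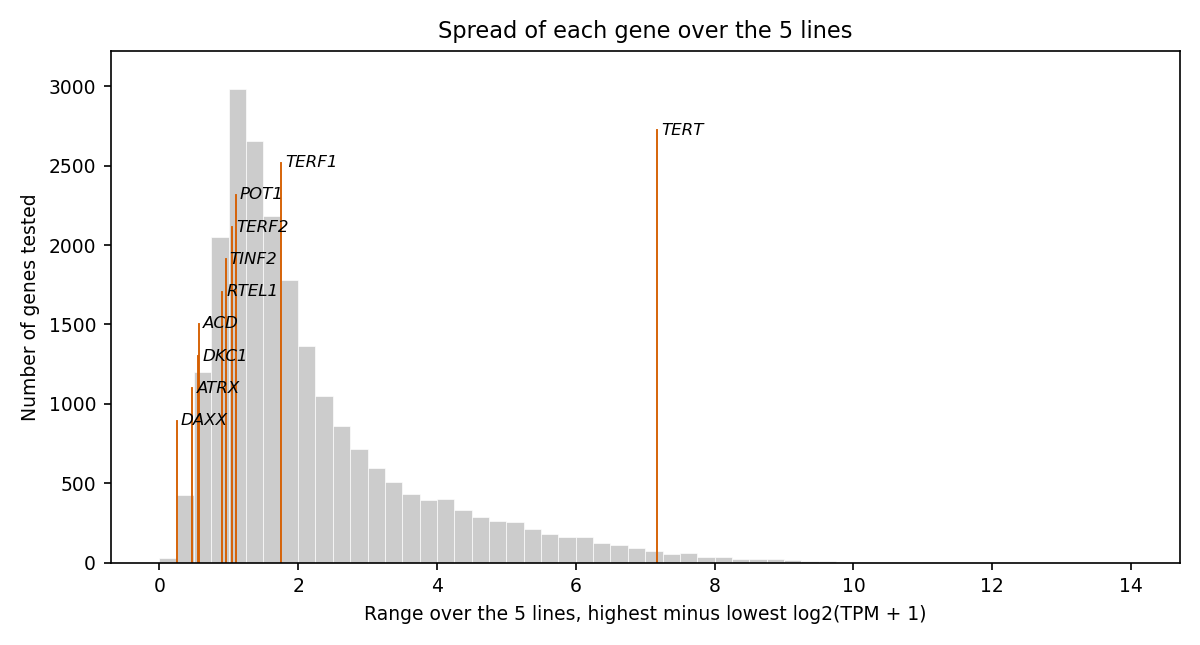
Number of tested genes by their range over the 5 lines (highest minus lowest log2(TPM + 1)), in bins of 0.25, with the 10 members marked by vertical lines whose heights carry no value. DAXX lies at the low end (0.25) and TERT in the upper tail (7.17).

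Genes around TERT near the end of the short arm of chromosome 5 were then read in the gene order of GENCODE 29, a window chosen after values were seen. Of the 5 tested genes on each side of TERT, 8 of the 10 were highest in MKL-2 among the MCC lines, against 23.0% of all genes. The 8 include the microRNA row MIR4635, next to SLC12A7 in gene order, so the rows may not all be separate. They also include SLC6A19 and RP11-325I22.2, which reached the filter of 1 TPM in MKL-2 only among the MCC lines. Those rows entered the window through MKL-2 and had to be highest there. The median difference of all 10 neighbours between MKL-2 and the mean of MCC13, MKL-1 and WaGa was 4.05 on the log2(TPM + 1) scale. It was 0.00 over all tested genes, and the difference of TERT was 2.70. The share was lower over a wider stretch. Of the 28 tested genes from the start of the chromosome to TERT itself, 14 (50%) were highest in MKL-2, with a median difference of 0.50. These 28 include TERT and the 5 neighbours before it. TRIP13, the next tested gene beyond NKD2, was lowest in MKL-2 among the MCC lines, at 34.8 TPM. SLC12A7, a potassium-chloride cotransporter, stood at 891 TPM in MKL-2, against 23.0 TPM in MCC13, 1.92 in MKL-1 and 11.9 in WaGa. LPCAT1, a lysophospholipid acyltransferase, stood at 1357 TPM in MKL-2, against 55.3 TPM in MCC13, 92.4 in MKL-1 and 134 in WaGa. NKD2, a Wnt pathway inhibitor, stood at 321 TPM in MKL-2, against 1.15 TPM in MCC13, 4.18 in MKL-1 and 17.8 in WaGa. CLPTM1L, the gene next to TERT, was also highest in MKL-2, at 346 TPM, against 87.3 TPM in MCC13, 164 in MKL-1 and 159 in WaGa. DNA copy number was not measured in these files, and each value rests on 1 library.

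**Figure D5:**
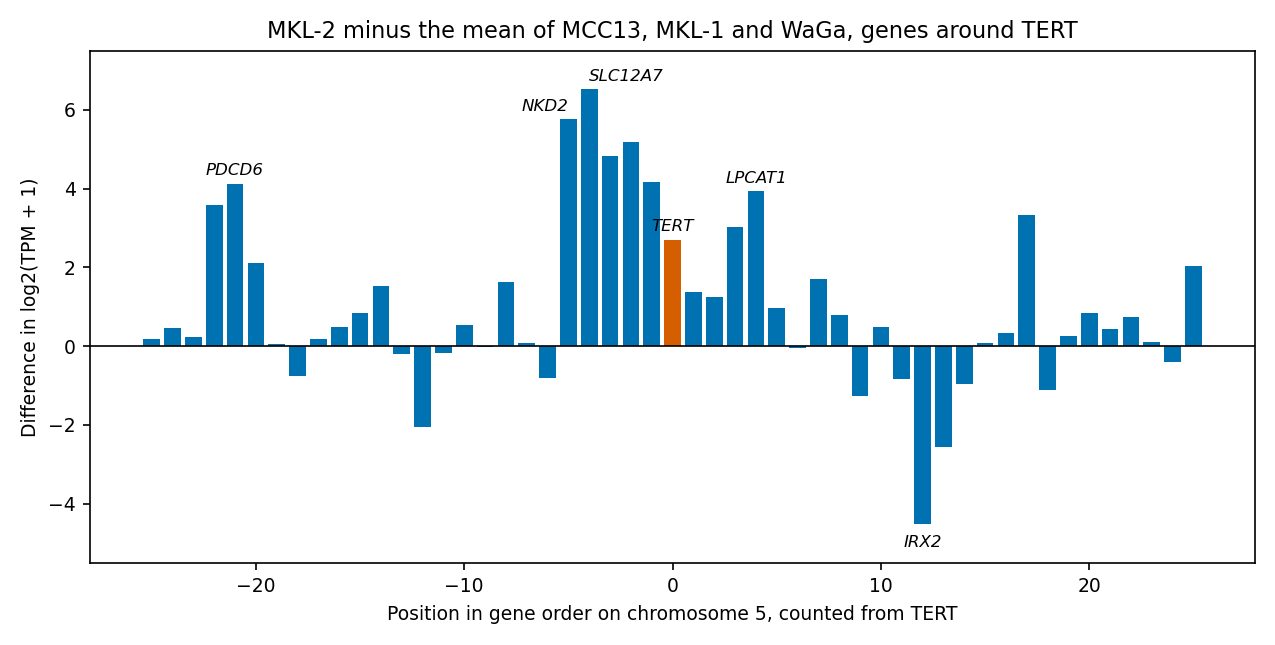
Difference in log2(TPM + 1) between MKL-2 (n = 1) and the mean of MCC13, MKL-1 and WaGa (n = 3) for tested genes in their order along chromosome 5, counted in genes from TERT (orange, 2.70). The genes from NKD2 to LPCAT1 are all above 0, with SLC12A7 the highest at 6.53.

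In REH several of these neighbours were abundant as well, with LPCAT1 at 242 TPM, CLPTM1L at 179 TPM, NKD2 at 164 TPM and SLC12A7 at 137 TPM, while SLC6A18 was listed at 0. The genes ranked nearest to TERT in profile over the 5 lines, by Euclidean distance of centred log2(TPM + 1), were MAP4K1 (1.23), NCKAP1L (1.3) and SASH3 (1.5). The ranking started from 16288 genes and left some out by symbol. These were clone-named and LINC rows, immunoglobulin and T-cell receptor segments, Y-linked genes, symbols starting with MT and some other symbol patterns. A left-out gene may thus lie nearer. MAP4K1, a kinase of blood cells, stood at 0.997 TPM in MCC13, 11.7 in MKL-1, 18.6 in MKL-2 and 8.01 in WaGa, against 251 TPM in REH. Of these 3 genes, 2 stayed among the nearest 3 with a pseudocount of 0.1.

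The wider pathway was followed in 5 lists of 61 genes. None of the 61 passed between MCC lines and REH (limma), where 5.24% of all genes did, and 5 were at unadjusted p under 0.05, where 18.6% of all genes were. Between MCC13 and the other 3 MCC lines 3 passed (limma), where 8.95% of all genes did, and 19 were at unadjusted p under 0.05, where 26.6% of all genes were. These 3 are described last.

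Of 12 genes for telomerase assembly and trafficking, none passed in either comparison (limma, 3 and 2 at unadjusted p under 0.05). NOP10, an H/ACA core protein beside dyskerin, stood at 306 TPM in MCC13, 345 in MKL-1, 231 in MKL-2 and 234 in WaGa, against 78.3 TPM in REH. Every MCC line was above REH, by 2.95-fold at the lowest (MKL-2), and the difference was 1.80 ± 0.34 (SE, limma, adjusted p = 0.0628). The other core proteins were not above REH in every MCC line. NHP2 was at 559 TPM in MCC13, with 273 to 343 TPM elsewhere in the MCC group, against 363 TPM in REH, and GAR1 at 94.9 TPM in MCC13, with 37.8 to 65.7 TPM elsewhere in the MCC group, against 55.4 TPM in REH. TEP1, a telomerase-associated protein, stood at 8.46 to 13.4 TPM in MCC lines, against 42.7 TPM in REH (log2 difference -1.87 ± 0.46 (SE), limma, adjusted p = 0.116). RUVBL1, an ATPase needed to assemble telomerase, had 289 TPM in MCC13, against 123 to 161 TPM elsewhere in the MCC group, a log2 difference of 1.09 ± 0.26 (SE, limma, adjusted p = 0.116).

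Of 12 shelterin partners and accessory factors, none passed in either comparison (limma, 0 and 2 at unadjusted p under 0.05). SLX4IP, which binds the nuclease scaffold SLX4, had 4.88 TPM in MCC13, with 10.9 to 13.1 TPM elsewhere in the MCC group, against 4.11 TPM in REH. Of 16 genes of the CST complex and telomere replication, none passed either (limma, 0 and 3 at unadjusted p under 0.05). FEN1, a flap nuclease of lagging-strand synthesis, stood at 183 to 475 TPM in MCC lines, against 556 TPM in REH. TEN1, a CST subunit, stood at 0.763 TPM in MCC13, against 2.33 to 9.26 TPM in the other 3 MCC lines. A TEN1-CDK3 readthrough row overlaps TEN1, so its level is uncertain.

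Of 10 genes for H3.3 and ALT-linked chromatin, 1 was higher in MCC13 than in the other 3 MCC lines and none was lower, while none passed between MCC lines and REH (limma, with 5 in the first case and 1 in the second at unadjusted p under 0.05). Of all genes 8.95% passed in the first case, and 26.6% and 18.6% were at unadjusted p under 0.05 in the first and the second. The gene was SP100, a structural protein of PML nuclear bodies, where ATRX and DAXX also gather. It stood at 82.1 TPM in MCC13, against 0.0415 TPM in MKL-1, 0.0425 in MKL-2 and 0.0182 in WaGa, and at 24.4 TPM in REH. MCC13 and REH were high and the other 3 lines near 0, and the difference of MCC13 from those 3 was 6.33 ± 0.27 (SE). Within the MCC lines SP100 reached the filter of 1 TPM in MCC13 only, so it entered this comparison through that line. The 3 values near 0 leave little room for spread on this scale, so the small SE is partly built in. The median difference of the list was -0.78, against -0.30 over all genes.

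Of 11 transcription factors that act on TERT, 1 was higher and 1 lower in MCC13 than in the other 3 MCC lines, and none passed between MCC lines and REH (limma, with 7 in the first case and 1 in the second at unadjusted p under 0.05, against the same shares of 8.95% called and 26.6% and 18.6% at unadjusted p over all genes). WT1, a zinc finger factor, rose to 3.91 TPM in MCC13 and stood at 19.7 TPM in REH. The other 3 MCC lines had at most 0.105 TPM, a log2 difference of 2.23 ± 0.14 (SE) for MCC13. As for SP100, WT1 entered this comparison through MCC13 only, and its small SE comes from values near 0. MYCL, a MYC paralog, was at 0.148 TPM in MCC13, against 87.0 to 127 TPM elsewhere in the MCC group, a log2 difference of -6.60 ± 0.34 (SE, limma, adjusted p = 0.00861), and at 1.42 TPM in REH. MYC itself, named after its values were seen, stood at 17.0 TPM in MCC13, 2.01 in MKL-1, 3.33 in MKL-2 and 1.46 in WaGa, against 37.0 TPM in REH. It did not pass between MCC13 and the other 3 lines (log2 difference 2.50 ± 0.51 (SE)). Nor did it pass between MCC lines and REH (log2 difference -2.95 ± 1.28 (SE)), a difference that was -3.58 without MCC13. SP100, WT1 and MYCL no longer passed in limma whichever of MKL-1, WaGa and MKL-2 was dropped, but neither did any other gene in those runs. That loss is therefore not particular to these 3 genes. Without MCC13 the log2 differences of the MCC lines from REH were -4.62, -4.31 and 5.52 for SP100, WT1 and MYCL. These 3 genes had been named because MCC13 differed from MKL-1, MKL-2 and WaGa. Leaving MCC13 out thus lowers their spread through that choice, and the result is no added support.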

How the data were processed

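RNA of 5 human cell lines was sequenced, with 1 library per line. The labels' protocols describe oligo-dT selection of mRNA and a strand-keeping (directional) library kit. The authors deposited TPM values per gene. Tools named in the submitters' processing notes are STAR 2.4.5b, StringTie 1.3.5, SAMtools 0.1.19 and bcl2fastq 2.20, and the builds hg19 and GRCh37. What each did, the gene annotation and the use of strand in quantification were not given in the sources used here. A TPM value keeps no depth, so no count-based interval or count test was possible. In the gene table, 1 column of values that matched no sample was not used, and the PAX5 exon table was not used.

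Lines were grouped by the labelled cell type. Genes that reached 1 TPM in any line compared, which held for all 10 members, were fitted by limma 3.58.1 (R 4.3.3) to log2(TPM + 1), with a variance trend and Benjamini-Hochberg adjusted p under 0.05, 2-sided. The residual degrees of freedom were 3 for MCC lines against REH and 2 for MCC13 against the other 3. A lone line was assumed to vary like the larger group. The labels name no separate cultures, so p measures the spread between libraries. The script was tested on simulated data. Named genes were all members, TERF2IP, NOP10, NHP2, GAR1, the 3 genes nearest to TERT, and per list and comparison up to 3 passing genes with the largest difference, or the largest if none passed. MYC, TERC, the markers and neighbouring genes fall outside this rule. The members and lists were chosen with earlier results of these data known. Promoters came from RefSeq (GRCh38.p14) and gene order from GENCODE 29, whose coordinates were not used. Alternatives changed the pseudocount, the filter, the scaling, the variance trend, the lines included and the RTEL1 row.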

Additional observations from a re-analysis of the deposited data

Results flagged for a closer look

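Among 26 genes looked at (those of the naming rule, plus MYC), 3 had a line whose gap to the nearest other MCC line took up nearly the whole range of the 4 MCC lines on the log2(TPM + 1) scale. In each it was MCC13. SP100 was highest there (gap over range 0.995), WT1 was highest (0.938) and MYCL was lowest (0.92). These 3 genes had been named because MCC13 differed from the other 3 lines in them, so the gaps restate that choice, are no added support, and cannot be read against the rate of about 1 in 20 groups that chance gives. No member of the set met this criterion, and the widest gap over range of TERT was 0.527, for MKL-2. MCC13 also differed in the marker lists (10 of 12 Merkel and neuroendocrine genes under 10 TPM), and the part of this in the 3 genes was not tested.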

How the results depend on the processing

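No member passed in either comparison under any of the alternatives run (0 called throughout), and 184 of 191 member values kept their direction. The 7 that reversed were small. For MCC lines against REH they were TERF2 (-0.0288 with quantile normalization and -0.10 without MKL-1, 0.25 being the highest on leaving out a line), ATRX (-0.024 with quantile normalization) and DAXX (0.00036 with mitochondrially encoded genes removed). For MCC13 against the other 3 they were DKC1 (-0.00929 without WaGa, up to 0.24 on leaving out a line) and RTEL1 (0.18 with quantile normalization, and -0.23 to 0.22 on leaving out a line, positive without WaGa). NHP2 (-0.19 to 0.15 on leaving out a line) and GAR1 (-0.15 to 0.29) reversed against REH without MCC13. The cause was not tested. Genes called between MCC lines and REH numbered 1166, 3694 with no filter on low values, 288 among genes averaging 5 TPM or more, and 0 to 2828 when an MCC line was left out (0 without MKL-1, MKL-2 or WaGa, with 3194 to 3432 at unadjusted p under 0.05, and 2828 without MCC13). For MCC13 against the other 3 they numbered 1852, 3312 with no filter, 1167 among genes averaging 5 TPM or more, and 0 whichever of MKL-1, WaGa and MKL-2 was dropped (4414 to 4978 at unadjusted p under 0.05). With a pseudocount of 0.1 the calls were 403 higher and 482 lower in MCC lines, against 243 and 923 with a pseudocount of 1. For MCC13 they were 983 higher and 711 lower, against 1340 and 512. Leaving out a line also leaves fewer residual degrees of freedom. TERT in MCC13 ran from -4.0 to -1.54 over its alternatives, and it has no value there among genes averaging 5 TPM or more. No paired analysis was possible because the lines carry no shared replicate numbers. With 1 library per line, line and library cannot be told apart.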

Other observations

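Genes of the wider pathway on the short arm of chromosome 8, named after their values were seen, were also highest in MKL-2 among the MCC lines. TNKS, a poly-ADP-ribose polymerase that releases TRF1 from telomeres, stood at 45.5 TPM in MKL-2, against 23.3 TPM in MCC13, 17.2 TPM in MKL-1 and 18.3 TPM in WaGa. HMBOX1, a telomeric repeat binding protein, stood at 41.2 TPM in MKL-2, against 12.7 to 13.5 TPM in the other 3. WRN, the Werner helicase, stood at 36.5 TPM in MKL-2, against 12.0 to 19.1 TPM. PINX1, a telomerase inhibitor, was at 41.9 TPM in MKL-2, close to 40.4 TPM in MCC13, and at 15.2 and 26.7 TPM in MKL-1 and WaGa. In gene order from the start of chromosome 8 to WRN, 68 of 172 tested genes (39.5%) were highest in MKL-2. The share was 85 of 512 (16.6%) on the rest of the chromosome and 23.0% of all genes. The split was set at WRN, a gene named for its high value in MKL-2, and the first stretch includes the genes named above. Its share thus partly restates that choice. The median difference between MKL-2 and the mean of the other 3 MCC lines was 0.31 up to WRN, against -0.17 after it. TERF1, on the rest of the chromosome, was at 34.3 TPM in MKL-2, against 30.8 to 83.7 TPM in the other 3. These are descriptions of 1 library per line and were not tested.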
